A study of Mus musculus with 12 samples.

Results

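Pyrimidine nucleotides and the deoxynucleotides used for DNA synthesis are made by a short series of enzymes, and the transcripts of 10 of them were examined in mouse tissue and cells in which Impdh2 had been deleted. The 10 genes were Cad, Dhodh, Umps, Ctps and Ctps2, whose products make UTP and CTP, and Tyms, Rrm1, Rrm2, Rrm2b and Tk1, whose products supply deoxynucleotides. They were chosen with earlier results of these data known, and were taken by symbol, as the rows of the count tables carrying these names. All 10 were found among 55900 gene identifiers and passed the filter on low counts in both tissues. IMPDH2, the product of the deleted gene, makes the precursor of guanine nucleotides, so the genes examined here belong to the branches of nucleotide metabolism beside the one that was disrupted.

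RNA sequencing gave 12 libraries in 6 groups of 2. The forelimb groups were E12.5 embryonic limbs, either wild type (WT) or carrying a Prx-driven deletion of Impdh2 in limb mesenchymal progenitors (Prx-cKO), so cells of the limb outside that lineage were in the same RNA with the gene intact. The culture groups were grown from marrow of WT mice or of mice carrying a LysM-driven deletion of the gene in myeloid cells (LysM-cKO), for 3 days with medium from L929 cells as a source of the macrophage growth factor M-CSF, equivalent to 20 ng/ml. The treatment protocol then names RANKL, the cytokine that drives osteoclast formation, at 40 ng/ml. Culture samples are titled R40D3 or R0D3 and share a single treatment label, so these titles are used as group names and their meaning is not assumed. Strain, age of the adult mice and pooling are not given in the labels, and nothing there says that replicates came from separate animals. The p-values measure the spread between these samples. In each forelimb group the 2 libraries were of opposite sex type by Xist and Ddx3y, so they came from different embryos. For the cultures the spread may be technical.

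In outline, pyrimidine synthesis starts with CAD, a protein that carries the first 3 steps from bicarbonate to dihydroorotate. DHODH, in the inner mitochondrial membrane, oxidises dihydroorotate to orotate, UMPS turns orotate into UMP, and the CTP synthases encoded by Ctps and Ctps2 aminate UTP to CTP. Ribonucleotide reductase then converts ribonucleotides to deoxyribonucleotides. Its large subunit is RRM1, and its small subunit is either RRM2, which accumulates in S phase, or RRM2B, which serves cells outside S phase and whose gene is a known target of p53. Thymidylate synthase (TYMS) makes dTMP from dUMP, and thymidine kinase 1 (TK1) salvages thymidine to the same product. Tyms, Rrm1, Rrm2 and Tk1 are known to be transcribed mostly in dividing cells.

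In GRCm38 the CTP and UTP genes lie on chromosome 5 (Cad, 31054780 to 31078479, plus strand), 8 (Dhodh, 109591343 to 109608673, minus), 16 (Umps, 33954782 to 33967038, minus), 4 (Ctps, 120539868 to 120570276, minus) and X (Ctps2, 162901238 to 163032508, plus). The deoxynucleotide genes lie on chromosome 5 (Tyms, 30058202 to 30073617, minus), 7 (Rrm1, 102441695 to 102469771, plus), 12 (Rrm2, 24708241 to 24714146, plus), 15 (Rrm2b, 37923952 to 37961318, minus) and 11 (Tk1, 117815526 to 117826092, minus). All are protein-coding. Exons of Umps, Rrm2b and Tk1 share 213, 734 and 83 bases with a gene on the other strand (Gm15829, Gm49085 and Afmid), and whether reads were counted by strand is not given in the sources used here, so reads in those stretches cannot be assigned with certainty. Processed pseudogenes similar to Ctps, Tyms, Rrm2, Rrm2b and Tk1 each held at most 4 counts in any library.

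The 250 bases before the transcription start are shown for 5 genes, because the transcripts of Tyms, Rrm1 and Rrm2 moved together across the culture libraries and those of Cad and Umps did so too (values given with the cultures). For Tyms, Rrm1 and Rrm2 this likeness leans on a single library, in which all of them were highest. Tk1, whose window is not printed, moved with them as well (r of 0.949 to 0.976) and was highest in the same library. Dhodh and Rrm2b had no entry in the RefSeq set used (GRCm38.p6), which held 11 starts for 8 of the 10 genes. The windows shown were taken from that set. Each runs 5′ to 3′ on the strand of its gene, at chr5:31054530-31054779 for Cad, chr16:33967039-33967288 for Umps, chr5:30073626-30073875 for Tyms, chr7:102441445-102441694 for Rrm1 and chr12:24708004-24708253 for Rrm2. Capitals mark each match to any of the motifs searched, on either strand.
Cad: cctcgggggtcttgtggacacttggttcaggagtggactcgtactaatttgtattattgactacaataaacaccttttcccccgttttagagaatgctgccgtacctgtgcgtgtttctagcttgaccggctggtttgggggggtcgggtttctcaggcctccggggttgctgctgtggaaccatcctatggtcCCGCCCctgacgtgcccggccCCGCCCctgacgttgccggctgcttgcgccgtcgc
Umps: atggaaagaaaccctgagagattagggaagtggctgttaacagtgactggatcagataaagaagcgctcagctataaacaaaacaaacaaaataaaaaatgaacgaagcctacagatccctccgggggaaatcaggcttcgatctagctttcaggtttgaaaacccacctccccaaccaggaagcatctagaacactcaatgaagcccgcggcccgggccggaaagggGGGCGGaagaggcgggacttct
Tyms: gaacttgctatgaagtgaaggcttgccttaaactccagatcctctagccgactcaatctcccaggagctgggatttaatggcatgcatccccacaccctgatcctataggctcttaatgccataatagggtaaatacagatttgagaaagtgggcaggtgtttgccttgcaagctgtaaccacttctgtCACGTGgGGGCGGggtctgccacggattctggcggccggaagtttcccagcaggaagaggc
Rrm1: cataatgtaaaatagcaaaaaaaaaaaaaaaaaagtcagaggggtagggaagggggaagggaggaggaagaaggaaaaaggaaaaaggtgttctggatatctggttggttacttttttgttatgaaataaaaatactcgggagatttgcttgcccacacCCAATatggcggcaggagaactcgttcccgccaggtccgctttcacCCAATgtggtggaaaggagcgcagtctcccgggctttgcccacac
Rrm2: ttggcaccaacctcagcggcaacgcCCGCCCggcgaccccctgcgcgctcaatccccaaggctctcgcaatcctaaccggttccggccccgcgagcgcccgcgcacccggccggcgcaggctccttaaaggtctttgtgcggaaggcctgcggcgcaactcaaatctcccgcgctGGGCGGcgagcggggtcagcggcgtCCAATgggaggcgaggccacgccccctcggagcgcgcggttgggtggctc
The motifs were the E-box CACGTG, the CCAAT box CCAAT, the GC box GGGCGG (read as CCGCCC on the other strand) and, as forms of the E2F site, TTTCCCGC, TTTCGCGC, TTTGCCGC and TTTGGCGC. No form contains another. Of 32851 RefSeq promoter windows of this length, 6.02% held the E-box, 33.8% the CCAAT box, 32.7% the GC box and 1.86% an E2F form. The GC box matched in the windows of Cad (2), Umps (1), Tyms (1) and Rrm2 (2), and also in those of Tk1 (1) and 1 start of Ctps. Rrm1 held 2 CCAAT boxes, Rrm2 held 1, and 1 start of Ctps2 held 1. The E-box was matched in Tyms alone of the 11 windows, and 0 of the 11 windows held one of these E2F forms. A match is a run of letters and not a measured binding site. The lack of a match does not show that a site is absent, since only these exact forms were searched.

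Depth was 28892215 to 69466572 counts per forelimb library and 16009146 to 19221865 per culture library, and replicates differed beyond sampling noise in all 6 groups. Levels are given as CPM, the read count of a gene scaled to the TMM-adjusted library size. Forelimb WT replicate 1 and Prx-cKO replicate 2 were female-type by Xist and Ddx3y and the other two forelimb libraries male-type, while all 8 culture libraries were male-type. The deleted gene was at 260 and 272 CPM in WT forelimbs and 170 and 199 CPM in Prx-cKO forelimbs (log2 fold change −0.53, adjusted p 0.443). In the cultures Impdh2 was at 25.7 and 27.7 CPM in WT and 7.72 and 8.38 CPM in LysM-cKO at R40D3, and at 22.3 and 28.2 against 7.36 and 7.03 CPM at R0D3 (adjusted p 0.0386 and 0.0323). The summed CPM of 12 osteoclast markers was 13700 to 39725 at R40D3 and 623 to 798 at R0D3, where Calcr was at 0 in all 4 libraries, so the R0D3 libraries carried the osteoclast label with little osteoclast marker RNA. The limb mesenchyme list summed to 1592 and 1813 CPM in WT forelimbs and 1176 and 1264 CPM in Prx-cKO forelimbs.

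Levels were first compared between genes, as CPM per kilobase of annotated exon. In WT forelimbs Rrm2 was the highest of the 10 at 83.1 ± 1.06 CPM per kilobase (SD, n = 2). Ctps (32.0 ± 3.92), Umps (27.7 ± 1.03) and Rrm1 (27.2 ± 6.88) came next, with the libraries of Rrm1 on either side of those of Umps and overlapping those of Ctps. Tyms (16.2 ± 0.508), Cad (15.5 ± 5.88) and Tk1 (15.1 ± 0.997) followed, with the libraries of Cad lying above and below those of the other two. Ctps2 (8.74 ± 1.57), Dhodh (4.75 ± 0.133) and Rrm2b (1.05 ± 0.000723) were lowest, in that order, each apart from its neighbours. Prx-cKO forelimbs kept Rrm2 at the top, at 133 ± 16.9, and Ctps2, Dhodh and Rrm2b at the bottom, at 8.85 ± 0.367, 6.57 ± 0.458 and 0.824 ± 0.0560 (SD, n = 2).

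The order was different in the cultures. In WT R0D3 cultures Ctps2 led, at 15.6 ± 0.546 CPM per kilobase (SD, n = 2), ahead of Umps (9.07 ± 0.321), Rrm2 (7.34 ± 0.630) and Rrm1 (6.17 ± 0.698). Ctps (4.10 ± 0.433) and Cad (3.48 ± 0.193) followed. Tk1 (2.44 ± 0.743) and Rrm2b (2.36 ± 0.0683) did not differ beyond their spread, nor did Tyms (1.55 ± 0.442) and Dhodh (1.51 ± 0.177). In WT R40D3 cultures Umps (13.3 ± 1.36) and Ctps2 (11.0 ± 0.444) were the highest and Tyms (1.01 ± 0.170) the lowest. With the longest transcript as the length in place of all exons, Rrm1 and Tk1 moved up, because their annotated exons far exceed 1 transcript: in WT forelimbs Rrm1 then ranked 2 at 54.6 and Tk1 ranked 4 at 31.6, and Rrm2 still ranked 1 at 105 CPM per kilobase.

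The 2 pairs of related enzymes set the tissues apart within single libraries, where no scaling between libraries enters. The ratio of Rrm2 to Rrm2b, per kilobase, was 80.1 and 78.7 in the WT forelimbs and 154 and 168 in the Prx-cKO forelimbs. In the cultures it was 1.93 to 3.37 in 7 libraries and 9.97 in LysM-cKO R0D3 replicate 2. Ctps exceeded Ctps2 in all 4 forelimb libraries, with ratios of 3.83 and 3.53 in WT and 4.79 and 5.39 in Prx-cKO, and was below it in all 8 culture libraries, with ratios of 0.247 to 0.435. Both knockout forelimbs thus lay above both WT forelimbs in each ratio. With longest transcripts the Rrm2 to Rrm2b ratios in the forelimbs were 50.5 and 49.7 against 97.2 and 106, in the same order.

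**Figure D1:**
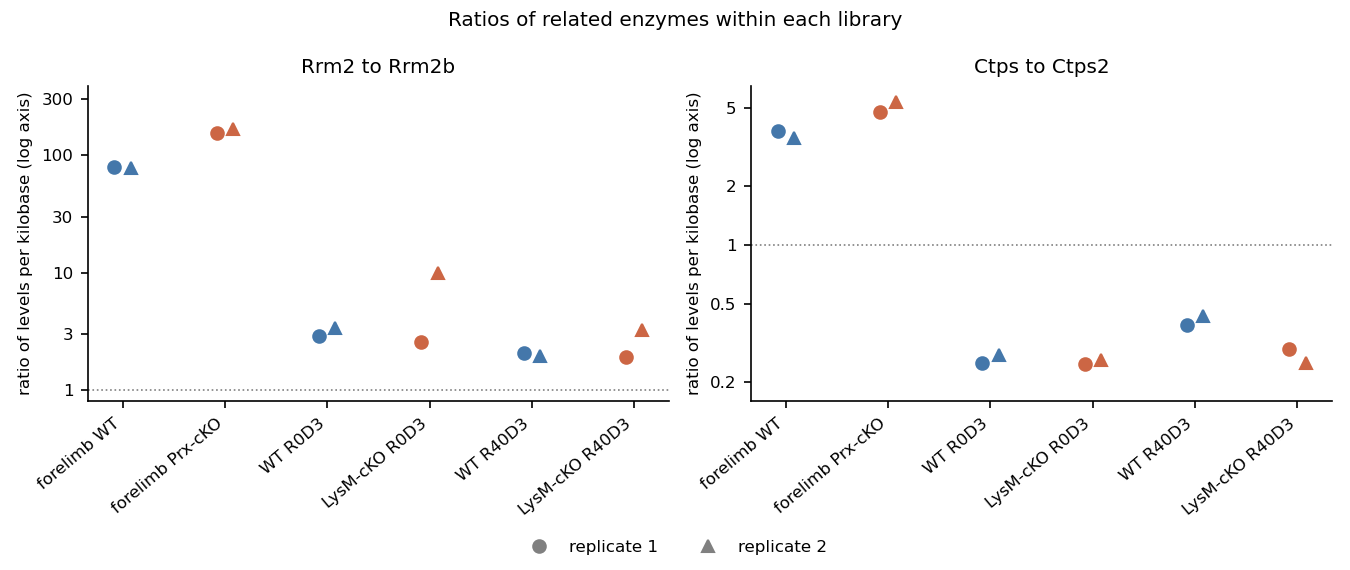
Ratio of CPM per kilobase of exon of Rrm2 to Rrm2b (left) and of Ctps to Ctps2 (right) in each of the 12 libraries, on log axes; circles are replicate 1, triangles replicate 2, blue WT and orange knockout, and the dotted line marks equal levels. Ctps to Ctps2 lies above 1 in the 4 forelimb libraries and below 1 in the 8 culture libraries, and 1 culture library, LysM-cKO R0D3 replicate 2, has a Rrm2 to Rrm2b ratio of 9.97.

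The forelimb comparison asked how the 10 transcripts respond to the Prx-driven deletion. Higher mean levels in Prx-cKO were measured for 9 of the 10, with Rrm2b the exception, and the differences were moderate, up to 1.77-fold for Tk1. None passed the adjusted threshold: 0 of 19987 genes were called, 0% of those tested (edgeR quasi-likelihood, Benjamini-Hochberg, two-sided), and hence 0 of the 10. An unadjusted p under 0.05 was reached by 6 of the 10, all higher (Dhodh, Umps, Ctps, Tyms, Rrm2 and Tk1), against 5.87% of all genes higher and 4.61% lower. Both knockout libraries lay above both WT libraries for 7 of the 10, against 22.2% of all genes, and below them for 1, against 21% of all genes. The median log2 fold change was 0.48 over the 10 and −0.03 over all genes tested. Because the 10 genes and the gene lists below were chosen with earlier results of these libraries known, such counts are descriptions.

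Among the genes of UTP and CTP synthesis, Cad, which encodes the entry enzyme, measured 93.1 and 161 CPM in the WT pair against 185 and 257 in the Prx-cKO pair. The WT libraries were far apart from each other, and the log2 fold change of 0.80 (SE 0.32) had an adjusted p of 0.477. Leaving out 1 library moved it between 0.42 (without WT replicate 1) and 1.26 (without WT replicate 2). Umps measured 93.9 and 98.9 CPM in the WT pair against 130 and 165 in the Prx-cKO pair, with groups that did not overlap. Its log2 fold change was 0.61 (SE 0.17, adjusted p 0.441).

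Dhodh measured 30.6 and 29.4 CPM in the WT pair against 39.5 and 43.6 in the Prx-cKO pair (log2 fold change 0.47, SE 0.16, adjusted p 0.460). Ctps measured 97.0 and 115 CPM in the WT pair against 137 and 163 in the Prx-cKO pair (0.49, SE 0.17, adjusted p 0.466). For both genes the groups were apart. The second CTP synthase was not: Ctps2 measured 36.0 and 46.5 CPM in the WT pair against 40.6 and 43.0 in the Prx-cKO pair, so both knockout values fell between the WT values. Its log2 fold change was 0.02 (SE 0.19, adjusted p 0.982), and its sign turned with library size alone as the scale (−0.08).

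Among the deoxynucleotide genes, Tk1 had the smallest p of the 10. It measured 82.3 and 75.0 CPM in the WT pair against 127 and 151 in the Prx-cKO pair, a log2 fold change of 0.82 (SE 0.16, adjusted p 0.372). DESeq2 called Tk1 (log2 fold change 0.81, adjusted p 0.0101) among 393 genes, and called none of the other 9. Rrm2 measured 232 and 228 CPM in the WT pair against 335 and 401 in the Prx-cKO pair, with the groups apart (0.68, SE 0.16, adjusted p 0.414). Tyms measured 96.7 and 101 CPM in the WT pair against 121 and 135 in the Prx-cKO pair, also apart (0.37, SE 0.15, adjusted p 0.475).

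The 2 remaining subunits of ribonucleotide reductase differed from this. Rrm1 measured 246 and 353 CPM in the WT pair against 334 and 424 in the Prx-cKO pair, so the groups overlapped (log2 fold change 0.34, SE 0.24, adjusted p 0.654). Rrm2b measured 9.57 and 9.56 CPM in the WT pair against 7.17 and 7.89 in the Prx-cKO pair, below WT in both libraries (−0.34, SE 0.23, adjusted p 0.646). A list of 30 p53 targets, which leaves out Rrm2b, was higher in 26 of 30 members in the same comparison, with a median log2 fold change of 0.91 and 20 members at an unadjusted p under 0.05, all higher. Ptprv and Ccng1, both p53-induced, had its smallest p, at log2 fold changes of 4.15 and 2.31, and neither passed the adjusted threshold (adjusted p 0.118 for both). That list was written with earlier results of these libraries known.

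**Figure D2:**
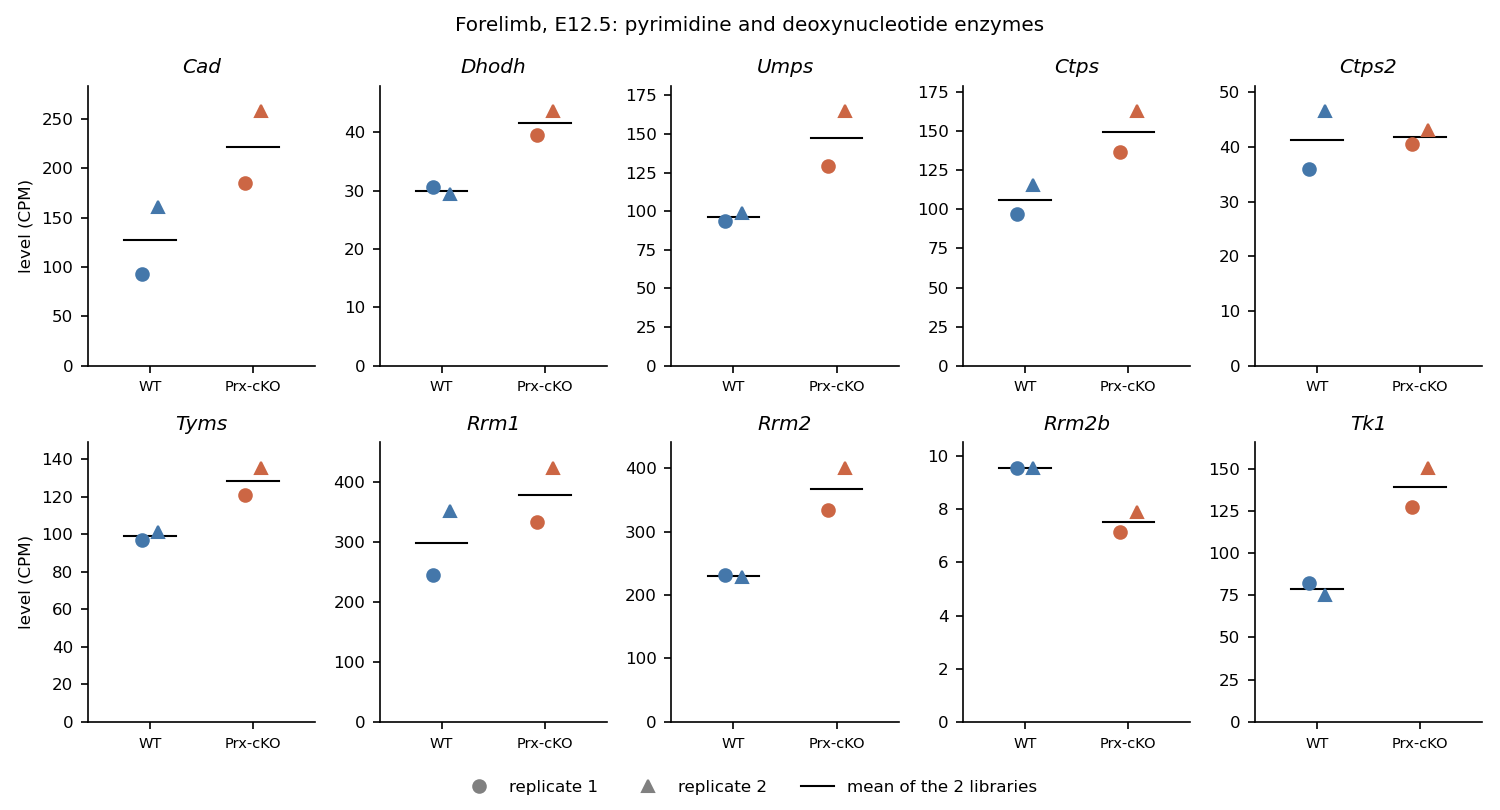
Level in CPM (vertical axis, from 0) of each of the 10 genes in the 4 forelimb libraries; circles are replicate 1, triangles replicate 2, and the line is the mean of 2 libraries. Prx-cKO lies above WT without overlap for Cad, Dhodh, Umps, Ctps, Tyms, Rrm2 and Tk1, below it for Rrm2b, and overlaps it for Ctps2 and Rrm1.

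Other genes of the pathway gave 0 calls in the forelimb. Of 17 genes of pyrimidine salvage and nucleotide kinases, 13 were higher in Prx-cKO, with a median log2 fold change of 0.15. The smallest p in that list belonged to the nucleoside diphosphate kinases Nme4, with 96.1 ± 10.7 CPM for WT and 181 ± 32.7 for Prx-cKO (SD, n = 2), and Nme2, with 445 ± 79.7 and 741 ± 117. Of 13 genes of thymidylate, dUTP and folate metabolism, 12 were higher, with a median of 0.52. Mthfd2, of mitochondrial one-carbon metabolism, averaged 37.6 ± 1.88 CPM against 70.5 ± 8.28 in the knockout (log2 fold change 0.91, adjusted p 0.340), and Fpgs, which adds glutamate to folates, at 24.6 ± 0.122 and 42.7 ± 6.04 (0.80, adjusted p 0.400). The 15 tested genes of nucleotide breakdown and transport were divided, 7 higher and 8 lower, with a median of −0.0011.

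The levels of proliferation genes in the same libraries stand beside these values. A list of 30 S-phase genes summed to 3610 and 3857 CPM in WT forelimbs and 4533 and 5299 CPM in Prx-cKO forelimbs, and 29 of its 30 members were higher (median log2 fold change 0.39, 0 called by edgeR and 10 at an unadjusted p under 0.05). Cdt1 and Ccne1, which act at the start of replication, had its smallest p, with log2 fold changes of 0.65 and 0.83 (adjusted p 0.400 for both). A list of 30 mitosis genes was higher in 16 of 30, with a median of 0.10 and sums of 4213 and 4800 CPM in WT against 4737 and 4874 CPM in Prx-cKO. In bulk RNA, fewer cells of a type and less RNA per cell cannot be told apart, so a level here mixes both.

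Cell type markers also differed between the forelimb groups. Of the 10 limb mesenchyme markers, the lineage in which the gene was deleted, 6 were lower and 4 higher in Prx-cKO, with a median log2 fold change of −0.37 and 4 lower and 0 higher at an unadjusted p under 0.05 (edgeR, 0 called). The 10 chondrogenic markers summed to 1029 and 1136 CPM in WT and 453 and 364 CPM in Prx-cKO, with 9 of 10 lower. The 10 skeletal muscle markers summed to 376 and 371 against 1015 and 486 CPM, with 9 of 10 higher, and the myeloid markers to 55.4 and 57.3 against 114 and 107 CPM, with 11 of 11 tested members higher. The 10 endothelial markers summed to 182 and 192 against 232 and 242 CPM, with 9 of 10 higher. The 9 erythroid markers summed to 3972 and 2765 CPM in WT and 3707 and 2902 CPM in Prx-cKO. None of the limb mesenchyme, chondrogenic, muscle, endothelial, erythroid or myeloid markers was at 0 in any forelimb library. The part of these cell types, of sex or of the S-phase level in the differences of the 10 genes was not tested.

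In the cultures, the comparison of genotypes asked the same question in cells of the myeloid lineage, at each of the 2 titles. At R40D3 the 5 genes of UTP and CTP synthesis gave 4 lower and 1 higher in LysM-cKO, and the 5 deoxynucleotide genes were all higher by their fitted values, the smallest at 0.0055. No member passed the adjusted threshold, against 2 called genes of 14030, 0.0143% of those tested, which were lower and included Impdh2. With the replicate number as a block, 30 genes were called and still 0 of the 10. An unadjusted p under 0.05 was reached by 2 of the 10, Cad and Ctps2, against 7.47% of all genes, with Cad lower (3.47% of all genes) and Ctps2 higher (4%). LysM-cKO lay below WT without overlap for 4 of the 10, against 18.9% of all genes, and above it for 2, against 19.7%. The median log2 fold change was 0.04 over the 10 and −0.0076 over all genes tested.

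Cad was at 38.8 and 40.3 CPM in the WT R40D3 cultures and 29.0 and 30.7 CPM in LysM-cKO R40D3. The 2 replicates of each genotype were close and the genotypes did not overlap. The log2 fold change was −0.40 (SE 0.098, unadjusted p 0.0038 by edgeR, adjusted p 0.648, and 0.107 in the blocked fit), and the same-numbered libraries differed by −0.42 and −0.39. Leaving out each library in turn kept it between −0.46 and −0.34. At R0D3 Cad was at 29.6 and 27.4 CPM in WT and 25.4 and 27.4 CPM in LysM-cKO, so the genotypes overlapped (log2 fold change −0.11, SE 0.100).

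Umps was at 42.8 and 49.5 CPM in WT R40D3 and 32.7 and 40.8 CPM in LysM-cKO R40D3, again without overlap (log2 fold change −0.33, SE 0.15, adjusted p 0.648). At R0D3 the WT pair held 30.8 and 32.4 CPM and the LysM-cKO pair 29.9 and 36.4 CPM, where the groups overlapped. Dhodh and Ctps were the other 2 genes below WT at R40D3, at 10.7 and 11.0 against 9.31 and 9.86 CPM for Dhodh (−0.18, adjusted p 0.760). Ctps was at 14.8 and 15.4 CPM in WT and 13.5 and 9.92 CPM in LysM-cKO (−0.36, SE 0.17, adjusted p 0.648), and its value moved to −0.18 when LysM-cKO replicate 2 was left out and to −0.58 when replicate 1 of that group was. At R0D3 both genes overlapped between genotypes, with log2 fold changes of −0.098 and −0.07.

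Ctps2 went the other way. The R40D3 cultures held 53.3 and 50.3 CPM for WT and 64.7 and 56.5 CPM for LysM-cKO, apart and higher in the knockout (log2 fold change 0.23, SE 0.095, adjusted p 0.648). The R0D3 cultures held 71.6 and 75.2 CPM for WT and 74.2 and 71.4 CPM for LysM-cKO, which overlapped (−0.01, SE 0.094). Its log2 fold change at R0D3 took either sign with the scaling.

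The osteoclast markers moved beside these differences. At R40D3 the 12 markers summed to 27058 and 39725 CPM in WT and to 13700 and 25581 CPM in LysM-cKO, and 12 of 12 were lower in LysM-cKO by their fitted values, with 0 called by edgeR and 4 at an unadjusted p under 0.05. At R0D3 the sums were 798 and 642 CPM in WT and 718 and 623 CPM in LysM-cKO. Myeloid markers summed to 30847 and 31104 CPM in WT R40D3 and 24384 and 21639 CPM in LysM-cKO R40D3, but the list was divided, with 4 of 12 higher and 8 lower and a median log2 fold change of −0.08. Stromal fibroblast markers summed to 1663 and 1595 against 1501 and 450 CPM, with 8 of 9 tested members lower. Neutrophil markers summed to 550 and 128 against 201 and 89.5 CPM, with 9 of 9 tested members lower and a median of −1.26. No osteoclast or myeloid marker was at 0 in an R40D3 library. The part of the shares of these cell types in the lower Cad, Umps, Dhodh and Ctps values was not tested.

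For the deoxynucleotide genes, a single culture library stood apart from the other 7. LysM-cKO R0D3 replicate 2 had Rrm2 at 58.0 CPM, against 20.3 CPM in LysM-cKO R0D3 replicate 1 and 19.1 and 21.6 CPM in WT R0D3. The same library had Tk1 at 39.7 CPM, against 15.6 CPM in its replicate and 10.0 and 15.4 CPM in WT. Tyms was at 28.1 CPM there, against 8.80 CPM in its replicate and 7.51 and 11.3 CPM in WT. Rrm1, the large subunit, was at 124 CPM there, against 67.6 CPM in its replicate and 62.5 and 73.4 CPM in WT. In these 4 genes only Tk1 had both knockout libraries above both WT libraries, and by little in replicate 1.

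At R0D3 the fitted log2 fold changes were large, with large errors. They were 1.12 for Tk1 (SE 0.45), 0.97 for Tyms (SE 0.53), 0.94 for Rrm2 (SE 0.43) and 0.49 for Rrm1 (SE 0.28), all with an adjusted p of 0.997. In this comparison 2 of 14030 genes were called, 0.0143%, and 0 of the 10, and 1 of the 10 (Tk1) had an unadjusted p under 0.05, against 4.42% of all genes. LysM-cKO lay above WT without overlap for 1 of the 10, against 17.5% of all genes, and below it for 0 of the 10 (14.8%). The median was 0.07 over the 10 and 0.0084 over all genes. Without LysM-cKO R0D3 replicate 2 the values were 0.30 for Tk1, −0.097 for Tyms, −0.0058 for Rrm2 and −0.0098 for Rrm1.

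At R40D3 the same 4 genes were also highest in LysM-cKO replicate 2, at 18.2 CPM for Tk1, 11.3 CPM for Tyms, 21.9 CPM for Rrm2 and 76.6 CPM for Rrm1. The other 3 R40D3 libraries held 9.31 to 10.5 CPM of Tk1, 5.44 to 6.90 CPM of Tyms, 14.0 to 14.5 CPM of Rrm2 and 54.0 to 65.0 CPM of Rrm1. The log2 fold changes were 0.57, 0.49, 0.35 and 0.07 in that order, with SE of 0.48, 0.58, 0.46 and 0.28. Without LysM-cKO replicate 2 they were 0.11, −0.02, 0.0032 and −0.22.

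Rrm2b, the small subunit that is not tied to S phase, varied little across the cultures. It lay between 19.2 and 26.1 CPM in all 8 libraries, with log2 fold changes of 0.0055 (SE 0.16) at R40D3 and 0.07 (SE 0.16) at R0D3. Its lowest value was in LysM-cKO R0D3 replicate 2, the library where Rrm2 was highest. Neither difference exceeded its standard error, and the sign at R40D3 turned with the scaling (−0.0024 in DESeq2).

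**Figure D3:**
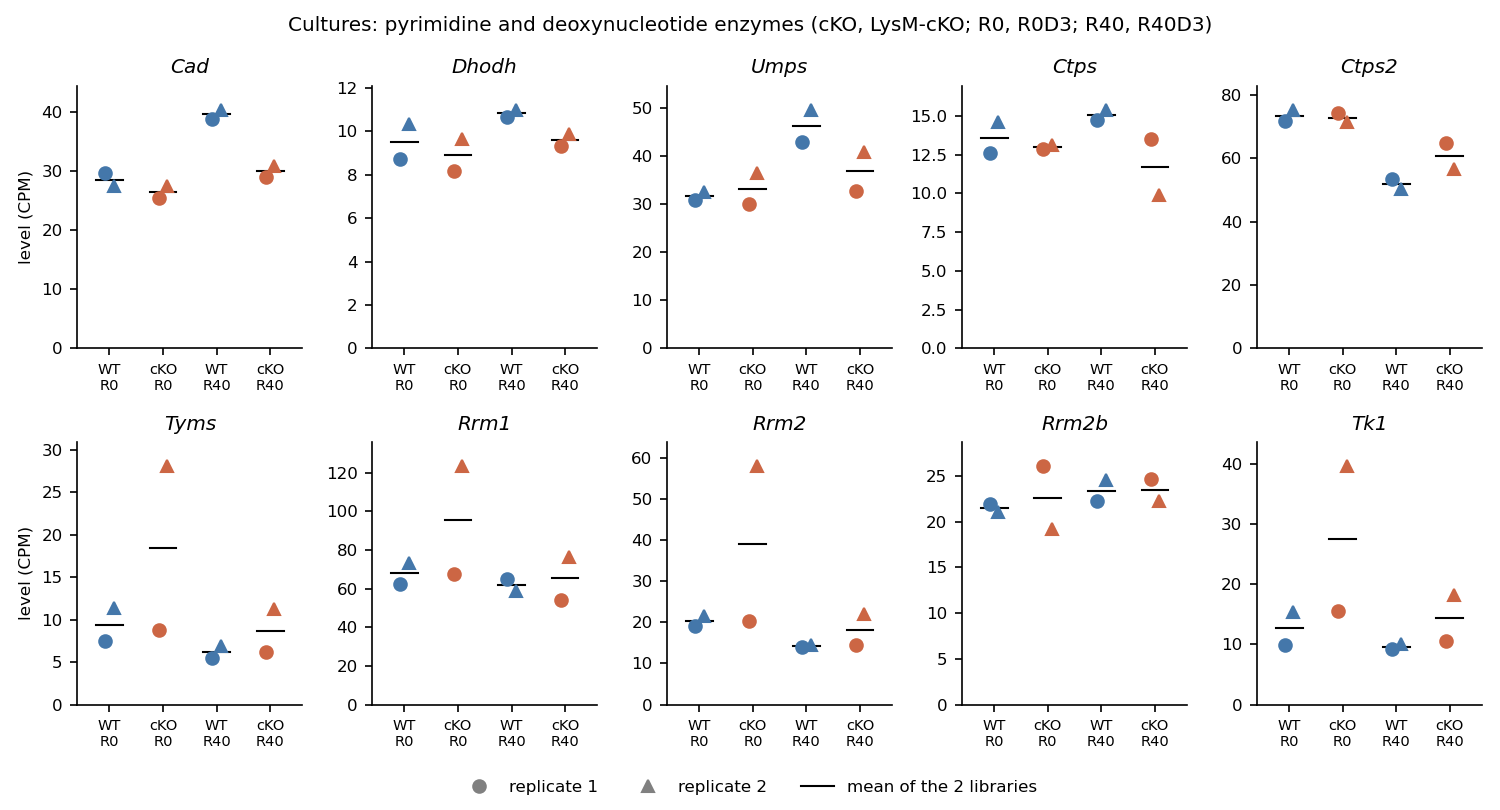
Level in CPM (vertical axis, from 0) of each of the 10 genes in the 8 culture libraries, by genotype and title; circles are replicate 1, triangles replicate 2, and the line is the mean of 2 libraries. Tyms, Rrm1, Rrm2 and Tk1 are highest in LysM-cKO R0D3 replicate 2, while Cad and Umps are highest and Ctps2 lowest in the 2 WT R40D3 libraries.

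Correlations between the genes over the 8 culture libraries are given as a description, since the libraries share groups. Tyms, Rrm1, Rrm2 and Tk1 correlated with each other in log2 CPM at r of 0.949 to 0.980. Rrm2b had negative r with them, at −0.777 to −0.611. LysM-cKO R0D3 replicate 2 held the highest value of each of them and the lowest of Rrm2b. These r, and those of the genes most like Rrm2 below, therefore lean on that library, and r without it was not calculated. Cad and Umps correlated at 0.880, and Ctps2 ran against both, at −0.919 and −0.921. Dhodh correlated with Cad and Umps at 0.754 and 0.824. Ctps had r of 0.386 with Cad, 0.184 with Umps and −0.097 with Ctps2, so the UTP and CTP genes shared no single pattern. Of 9690 genes compared, those most like Rrm2 were Dcp1b (r = 0.992), Lig1 (0.990), which encodes a DNA ligase of replication, and Sfxn5 (0.982). Those most like Cad were Zfp1 (0.977), Mrm1 (0.976) and Tmem19 (0.964), and those most like Rrm2b were Slc12a2 (0.936), Tet3 (0.910) and Rab11fip2 (0.910).

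The library that stood apart in the deoxynucleotide genes also stood apart in proliferation genes at large. Summed over Tyms, Rrm1, Rrm2 and Tk1, it held 249 CPM, against 85.1 to 128 CPM in the other 7 culture libraries. The 30 S-phase genes summed to 1087 CPM in it and to 467 to 680 CPM in the others, and the 30 mitosis genes to 1391 CPM and to 295 to 739 CPM. Stromal fibroblast markers summed to 525 CPM in it and 450 CPM in LysM-cKO R40D3 replicate 2, against 1247 to 1663 CPM in the other 6. At R0D3, 29 of 30 S-phase genes and 30 of 30 mitosis genes were higher in LysM-cKO, with median log2 fold changes of 0.51 and 1.01, 0 called by edgeR, and 1 and 11 at an unadjusted p under 0.05. At R40D3 the counts were 25 and 30 of 30, with medians of 0.21 and 0.79, 0 called, and 0 and 2 at an unadjusted p under 0.05. The R40D3 S-phase sums were 467 and 629 CPM in LysM-cKO replicates 1 and 2, against 493 and 505 CPM in WT. The R40D3 mitosis sums were 376 and 739 against 308 and 295 CPM. In R0D3 LysM-cKO replicate 1 they were 597 (S phase; WT 577 and 680) and 572 CPM (mitosis; WT 365 and 581). Except for mitosis at R40D3, only replicate 2 of LysM-cKO exceeded both WT sums. What part a larger share of dividing cells has in the levels of these 4 genes was not tested.

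**Figure D4:**
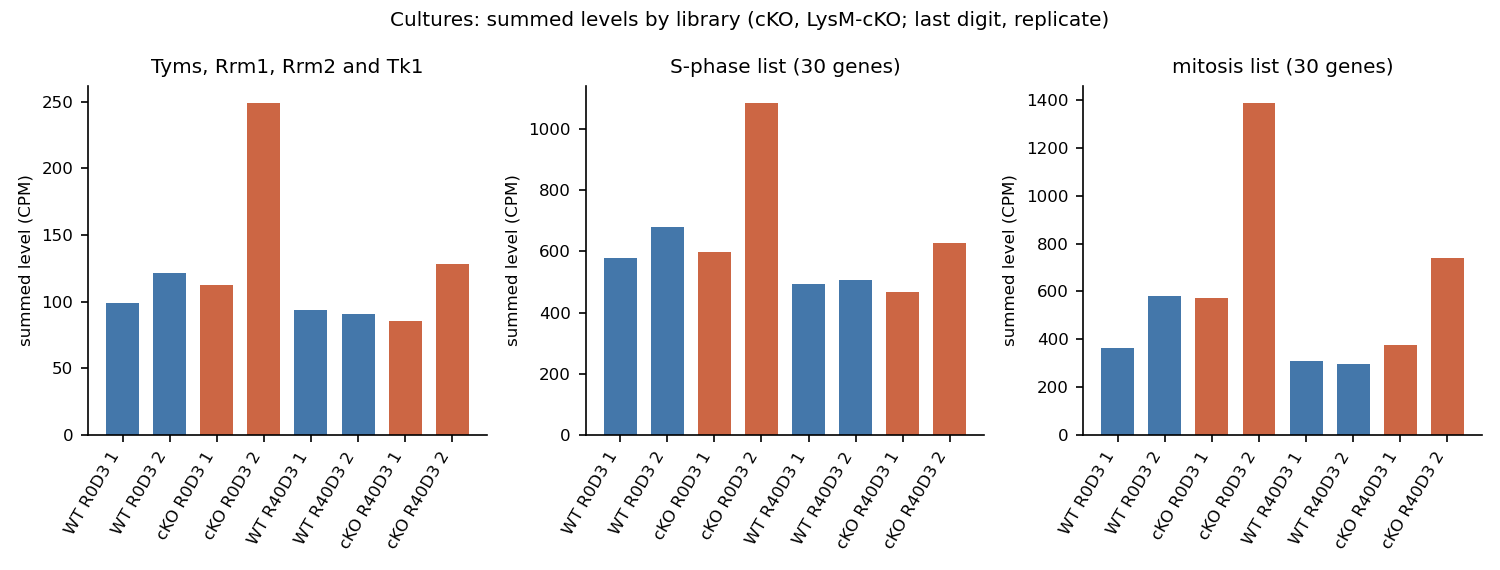
Summed level in CPM (vertical axes, from 0) of Tyms, Rrm1, Rrm2 and Tk1 (left), of 30 S-phase genes (middle) and of 30 mitosis genes (right) in the 8 culture libraries, blue for WT and orange for LysM-cKO. LysM-cKO R0D3 replicate 2 is the highest in each panel, at 249, 1087 and 1391 CPM.

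The pathway lists gave 0 calls between genotypes in the cultures, besides Impdh2 itself in the guanine list. At R40D3 the salvage and kinase list had 7 of 15 tested genes higher and a median log2 fold change of −0.02, with the smallest p at Uck2, a uridine-cytidine kinase (−0.38, adjusted p 0.648). The thymidylate and folate list had 4 of 13 higher, with a median of −0.14, and its smallest p was at Ggh, which removes glutamates from folates (0.36, adjusted p 0.648). The breakdown and transport list had 6 of 15 higher and a median of −0.04, with the smallest p at Slc25a36, a mitochondrial carrier of pyrimidine nucleotides, which was higher (0.29, adjusted p 0.648), followed by the nucleoside transporter Slc29a1, which was lower (−0.29, adjusted p 0.648). At R0D3 the medians of the same lists were −0.04, −0.01 and −0.03. In the salvage and kinase list the smallest p there were at Uprt, with 14.3 ± 1.51 CPM for WT and 21.4 ± 1.26 for LysM-cKO (log2 fold change 0.58), and at Dck, which phosphorylates deoxycytidine, with 49.0 ± 3.54 and 69.1 ± 23.4 (0.50) (SD, n = 2).

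Within each genotype, R40D3 was then set against R0D3. In WT, Cad and Umps rose at R40D3 and Ctps2 fell, so the first and last enzymes leading to UMP moved opposite to the second CTP synthase. These were 3 called genes of 10, against 2367 of 14030, 16.9% of those tested, and 3977 with the block, which called the same number of the 10. By direction, 2 of the 10 rose, against 11.4% of all genes, and 1 fell, against 5.52%. R40D3 lay above R0D3 without overlap for 5 of the 10 (32.9% of all genes) and below it for 3 (29.2%), with a median of −0.006 over the 10 and 0.0098 over all genes.

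Cad rose from 29.6 and 27.4 to 38.8 and 40.3 CPM in WT, a log2 fold change of 0.47 (SE 0.098, adjusted p 0.0165). Umps rose from 30.8 and 32.4 to 42.8 and 49.5 CPM (0.55, SE 0.15, adjusted p 0.0447). Ctps2 fell from 71.6 and 75.2 to 53.3 and 50.3 CPM (−0.50, SE 0.095, adjusted p 0.0117). Within the same-numbered libraries the differences were 0.39 and 0.56 for Cad, 0.48 and 0.61 for Umps, and −0.43 and −0.58 for Ctps2. These calls moved with the settings: the adjusted p of Umps was 0.0513 with RLE size factors, without a filter on low counts it was 0.0525 for Cad and 0.0998 for Umps, and leaving out any 1 of the 4 WT libraries ended all 3 calls except that of Ctps2 without WT R40D3 replicate 1.

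The other 7 genes were not called in WT. Dhodh (9.53 ± 1.12 CPM at R0D3 and 10.8 ± 0.230 at R40D3), Ctps (13.6 ± 1.44 and 15.1 ± 0.455) and Rrm2b (21.5 ± 0.624 and 23.4 ± 1.61) had log2 fold changes of 0.19, 0.15 and 0.12 (SD, n = 2). Tyms (9.42 ± 2.69 and 6.17 ± 1.03), Rrm2 (20.3 ± 1.75 and 14.2 ± 0.325), Tk1 (12.7 ± 3.86 and 9.66 ± 0.500) and Rrm1 (67.9 ± 7.68 and 61.9 ± 4.25) were lower, with log2 fold changes of −0.61, −0.51, −0.39 and −0.13 (SD, n = 2). Their adjusted p lay between 0.492 and 0.805 over these 7 genes. Rrm2 was called (adjusted p 0.0340) when the 4 WT libraries were fitted without the LysM-cKO libraries.

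In LysM-cKO, 0 of the 10 were called between R40D3 and R0D3 by edgeR, against 1422 genes, 10.1% of those tested, 980 higher (6.99%) and 442 lower (3.15%). An unadjusted p under 0.05 was reached by 2 of the 10, Ctps2 and Rrm2, against 24% of all genes. R40D3 lay above R0D3 without overlap for Cad alone, 1 of the 10 (27.3% of all genes), and below it for Ctps2 alone (22.5%), with a median of −0.20 over the 10 and 0.0094 over all genes. With the replicate block 2983 genes were called and 3 of the 10, all lower at R40D3: Tyms (log2 fold change −1.01, adjusted p 0.0293), Rrm2 (−1.03, adjusted p 0.0378) and Tk1 (−0.89, adjusted p 0.0260). Without the block their values were −1.09, −1.11 and −0.95, with adjusted p of 0.265, 0.172 and 0.249. The R0D3 values included the library that stood apart, and without it they were −0.03, −0.16 and −0.12. In the replicate 1 libraries alone the differences were −0.52, −0.49 and −0.57, and in the replicate 2 libraries −1.32, −1.40 and −1.12.

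Cad in LysM-cKO was at 25.4 and 27.4 CPM at R0D3 and 29.0 and 30.7 CPM at R40D3, a log2 fold change of 0.18 (SE 0.099, adjusted p 0.330). Umps was at 29.9 and 36.4 and at 32.7 and 40.8 CPM (0.15, SE 0.15, adjusted p 0.622), and Ctps2 at 74.2 and 71.4 and at 64.7 and 56.5 CPM (−0.26, SE 0.095, adjusted p 0.138). Each of these was smaller than in WT and of the same sign. All 12 osteoclast markers were called higher at R40D3 in each genotype, and the part of the share of osteoclasts in the changes of Cad, Umps and Ctps2 was not tested. The WT and LysM-cKO changes were compared by the interaction of genotype and title, which gave 0 called genes, 0% of 14030, with 248 at an unadjusted p under 0.05 (1.77%) and 0 of the 10 among them (edgeR). The interaction was −0.29 for Cad (SE 0.14), −0.40 for Umps (SE 0.21) and 0.24 for Ctps2 (SE 0.13), each with an adjusted p of 1.00. Of the 10 genes, 9 had a negative and 1 a positive value, with a median of −0.35 against −0.017 over all genes. With 1 library left out, the interaction reached 0.59 for Tyms, 0.083 for Rrm1, 0.35 for Rrm2 and 0.27 for Tk1. Dhodh and Rrm2b also changed sign in such fits.

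**Figure D5:**
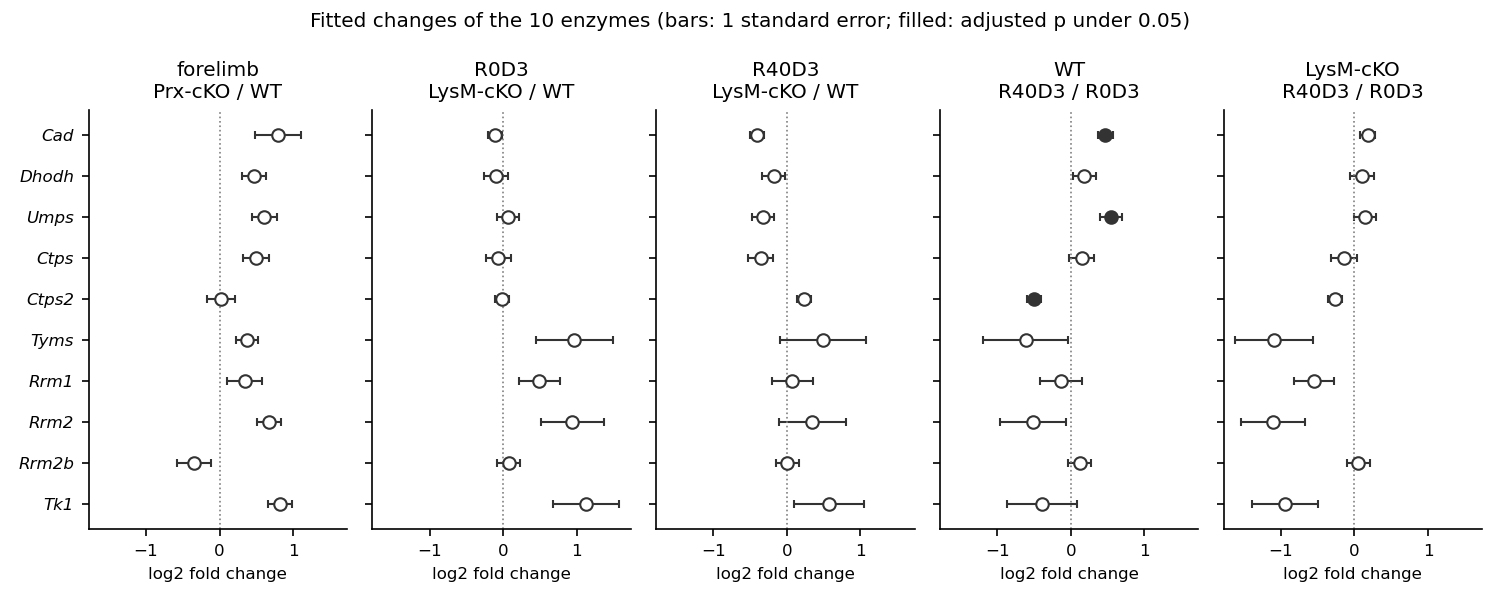
Fitted log2 fold change (horizontal axis) with 1 standard error of the 10 genes in the 5 comparisons; filled points have an adjusted p under 0.05. The 3 filled points are Cad, Umps and Ctps2 in WT R40D3 against R0D3, and Tyms, Rrm1, Rrm2 and Tk1 carry the widest bars in the cultures.

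Single genes of salvage and transport also changed between R40D3 and R0D3. Uck2, which phosphorylates uridine and cytidine, rose from 11.5 ± 0.745 to 44.9 ± 4.52 CPM in WT (log2 fold change 1.96, adjusted p 0.0011) and from 10.8 ± 0.491 to 34.5 ± 9.43 CPM in LysM-cKO (1.67, adjusted p 0.00346) (SD, n = 2). The uridine phosphorylase gene Upp1 rose from 0.155 ± 0.220 to 4.61 ± 0.904 CPM in WT (adjusted p 0.00608) and from 0.0862 ± 0.122 to 2.51 ± 1.68 CPM in LysM-cKO (adjusted p 0.0274). Since 1 R0D3 library of each genotype held 0 counts of Upp1, no fold is given. The nucleoside transporter gene Slc29a1 rose by 0.91 on the log2 scale in WT (adjusted p 0.0054) and by 0.79 in LysM-cKO (adjusted p 0.0146). In the salvage and kinase list these were 2 called of 15 in each genotype, both higher, and in the breakdown and transport list 1 of 15 in each, higher. Of all genes, 11.4% were called higher in WT and 6.99% in LysM-cKO.

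Folate genes changed in single members. Of all genes, 11.4% were called higher and 5.52% lower in WT, and 6.99% and 3.15% in LysM-cKO. In WT Mthfd1, a trifunctional folate enzyme, rose from 30.9 ± 0.318 to 51.0 ± 0.747 CPM (log2 fold change 0.73, adjusted p 0.0108) and Ggh fell from 82.9 ± 3.27 to 50.3 ± 8.20 CPM (−0.72, adjusted p 0.00694), 1 called higher and 1 lower of 13. In LysM-cKO Shmt1, which makes methylene-folate from serine, rose from 6.45 ± 0.633 to 9.98 ± 0.777 CPM (0.63, adjusted p 0.0462), the 1 call of that list (SD, n = 2 for each). In the S-phase list Pcna, the replication clamp, fell in both genotypes, by 0.97 in WT (adjusted p 0.0302) and by 1.26 in LysM-cKO (adjusted p 0.018) on the log2 scale. Chaf1b, a histone chaperone subunit, rose in WT (1.90, adjusted p 0.0152). Over the S-phase list 25 of 30 were lower in WT and 27 of 30 in LysM-cKO, with medians of −0.34 and −0.60, and over the mitosis list 30 of 30 in both, with medians of −0.60 and −0.84 and 0 called.

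The p53 list also held calls between the titles. In WT 3 of 30 rose (11.4% of all genes) and 5 fell (5.52%). In LysM-cKO 1 rose (6.99%) and 1 fell (3.15%), and not all of these genes are named here. The kinase gene Plk2 fell from 166 to 69.8 CPM on average in WT (log2 fold change −1.25, adjusted p 0.00161) and by 1.24 on the log2 scale in LysM-cKO (adjusted p 0.00268). Sesn1, a stress-induced sestrin, fell by 0.50 in WT (adjusted p 0.00483), and Pmaip1, a pro-apoptotic BH3 gene, rose by 1.28 (adjusted p 0.0173). Between genotypes 20 of 30 were higher at R40D3 and at R0D3, with medians of 0.13 and 0.10, 0 called by edgeR in either, and 10 and 3 at an unadjusted p under 0.05. Rrm2b, the p53 target among the 10 genes, was called in none of the 5 comparisons.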

How the data were processed

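The deposited values are unnormalised read counts for each Ensembl identifier, with 1 table holding the forelimbs and the cultures divided over 2 tables by replicate number. Per the labels' protocols, RNA was extracted with TRIzol and libraries were made with an mRNA kit. The submitters' processing notes name FastQC 0.11.2, Trimmomatic 0.36, HISAT2 2.1.0, DESeq2 1.12.4 and GRCm38, without roles. The counting tool, annotation and use of strand are not given in the sources used here. That counting also sets how reads shared by overlapping genes or by pseudogenes were assigned.

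The tables held 51826 (forelimb) and 55401 (culture) identifiers, of which 99.6% and 99.5% matched a symbol. Genes were filtered with filterByExpr, scaled by TMM and fitted with the edgeR 4.0.16 quasi-likelihood test (legacy = FALSE, R 4.3.3), the 4 forelimb libraries alone and the 8 culture libraries together. Tests were two-sided, with Benjamini-Hochberg adjustment over all genes tested and calls at an adjusted p under 0.05. Each standard error was derived from the fold change (log2) and its F statistic. The 2 tissues were scaled separately. Exon lengths, positions and overlaps came from GENCODE M21 (GRCm38), and pseudogenes from blastn matches of at least 85% identity over at least 200 bases. Correlations are Pearson's r of log2 CPM (prior count 2).

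The members and lists were chosen with earlier results of these data known, and counts over them are descriptions. The text names all 10 genes, Impdh2, and the 3 genes most like Cad, Rrm2 and Rrm2b. Genes of the pathway lists were taken from those called (up to 5 by p) or otherwise from the 2 with the smallest p. Not every gene that met this rule is named. Same-numbered culture libraries deviated together in 6 of 6 pairs of groups (r from 0.343 to 0.609), so the numbers were taken to pair them. The main culture fit had no replicate block, so its standard errors, p-values and shares of genes do not use this pairing. Results of a blocked fit are printed wherever they alter a call or shift a count of calls by over 1.5 times. Alternatives were DESeq2 1.42.0, other scalings, no filter, the legacy fit, the block, only the compared libraries, sex in the forelimb, and each library left out.

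The pipeline was run on simulated counts with known changes, as a check of the code. Its rate of recovery is not reported here, so this check lends no support to the values above.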

Additional observations from a re-analysis of the deposited data

Results flagged for a closer look

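The genotype effects of 4 genes of UTP and CTP synthesis had opposite signs in the forelimb and in the R40D3 cultures, with both knockout libraries on one side of both WT libraries in each tissue. The log2 fold changes were 0.80 in the forelimb and −0.40 at R40D3 for Cad, 0.47 and −0.18 for Dhodh, 0.61 and −0.33 for Umps, and 0.49 and −0.36 for Ctps. None of the 8 values passed the adjusted threshold in edgeR. These genes were picked by this rule, so their lack of overlap adds no support. Of all genes tested, 22.2% lay apart and higher in the forelimb, and 18.9% apart and lower at R40D3. The share of all genes meeting both was not counted. The difference between tissues was not tested, because the tables were normalised separately and the deletions act in different cells.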

How the results depend on the processing

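With 2 libraries a group, every comparison between genotypes had little power, and a value that was not called is not shown to be unchanged. Of the fitted values of the 10 genes under all alternatives, 635 kept their direction and side of the threshold, 33 reversed, 8 became called and 14 lost a call. DESeq2 called 393 genes in the forelimb, with 1 of the 10 (Tk1), 19 at R40D3, 7 at R0D3, and 1 of the 10 (Rrm2, adjusted p 0.0394) in LysM-cKO R40D3 against R0D3. Sex as a term gave 1 call in the forelimb. Library size alone, and fitting only the 4 compared libraries, gave 0 calls at R40D3, the latter also 0 at R0D3 and 533 in LysM-cKO R40D3 against R0D3. Without a filter, 1 of the 10 was called in WT R40D3 against R0D3.

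Whether the numbers pair the forelimb libraries could not be settled: the 2 groups share only 2 numbers, with r = 0.261 and the sexes crossed. The block gave 0 forelimb calls. In the cultures the block gave 30 calls at R40D3, 3 at R0D3, 3977 in WT R40D3 against R0D3 and 2983 in LysM-cKO R40D3 against R0D3, where 3 of the 10 were called. It changed no other call of the 10.

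Leaving out 1 library gave 0 to 603 calls in the forelimb (603 without WT replicate 1, 104 without WT replicate 2), 0 to 0 at R40D3 and at R0D3, 689 to 1699 in WT R40D3 against R0D3 with 0 to 1 of the 10, and 399 to 1317 in LysM-cKO R40D3 against R0D3 with 0 to 2 of the 10. The lone library is then assumed to vary like the others.

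Signs turned as follows, the cause not being tested. Ctps2 in the forelimb was −0.081 with library size alone, −0.021 without a filter and −0.19 to 0.22 with a library left out. Ctps2 at R0D3 was 0.0043 with library size alone. Rrm2b at R40D3 was −0.0024 in DESeq2 and −0.0014 with RLE. With 1 library left out, R40D3 values ran from −0.070 to 0.087 for Rrm2b, −0.018 to 0.90 for Tyms and −0.22 to 0.33 for Rrm1. R0D3 values ran from −0.22 to 0.024 for Dhodh, −0.083 to 0.18 for Umps, −0.17 to 0.044 for Ctps, −0.065 to 0.023 for Ctps2, −0.097 to 1.55 for Tyms, −0.0098 to 0.84 for Rrm1, −0.0058 to 1.49 for Rrm2 and −0.19 to 0.27 for Rrm2b. LysM-cKO R40D3 against R0D3 ran from −0.016 to 0.23 for Dhodh, −0.058 to 0.30 for Umps, −0.39 to 0.016 for Ctps and −0.15 to 0.29 for Rrm2b. The interaction ran from −0.20 to 0.047 for Dhodh, −1.06 to 0.59 for Tyms, −0.76 to 0.083 for Rrm1, −1.13 to 0.35 for Rrm2, −0.27 to 0.20 for Rrm2b and −1.05 to 0.27 for Tk1.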
